A study of Homo sapiens with 6 samples.

Results

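The expression of 9 genes for sensors of double-stranded RNA (dsRNA) and the proteins that act with them was compared between LNCaP parental cells and LNCaP cells with a knockout of PACT (PACT KO). The genes were chosen by name, and their rows were found by NCBI Gene number among the 29806 genes counted. The sensors are *RIGI*, *IFIH1*, *DHX58*, *TLR3*, *OAS1* and *OAS3*, and the other genes are *MAVS*, *IRF3* and *ADAR*. Every one of the 9 was listed and had enough reads to be tested.

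RIG-I (the product of *RIGI*), MDA5 (*IFIH1*) and LGP2 (*DHX58*) are helicases that bind dsRNA in the cytoplasm. RIG-I and MDA5 pass the signal to MAVS on the mitochondrion, which leads to phosphorylation of IRF3 and transcription of interferon genes, while LGP2 lacks the signalling domains and modulates the other helicases. TLR3 binds dsRNA in endosomes, the OAS enzymes respond to it by making short oligoadenylates that set off the decay of RNA, and ADAR edits adenosines of dsRNA to inosines, which lowers its recognition by MDA5. PACT itself binds dsRNA, activates the kinase PKR, and has been described as a partner of RIG-I, MDA5 and LGP2.

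LNCaP is an androgen-responsive human prostate cancer cell line. The parental cells carried the label wild type and were not cloned, whereas the knockout cells were made with Cas9 and a guide to *PRKRA*, the gene of PACT, followed by sorting for a fluorescent marker and growth of single colonies. Both lines were grown in RPMI-1640 with 10% serum, and RNA was taken 48 h after plating, at about 80% confluency, from 3 dishes of each line. All PACT KO dishes came from 1 clone, so the effect of the knockout and the properties of that clone cannot be told apart, and p-values measure the spread between dishes. The labels name no treatment with dsRNA, virus or interferon in either group.

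*PRKRA* had 882, 809 and 866 reads in the 3 LNCaP parental libraries and 291, 331 and 243 in the 3 PACT KO libraries. Its mean level was 37.1 ± 1.96 CPM in LNCaP parental cells and 12.5 ± 0.995 CPM after knockout (counts per 1000000 reads of a scaled library, mean ± SD, n = 3), with a log2 fold change of -1.57 (SE 0.07, FDR = 8.83e-21 by edgeR). Reads counted on genes were 19930060 to 24940838 per library, and 3 reads corresponded to 0.121 to 0.148 CPM. Mitochondrial genes took 1.97% to 2.01% of the reads of LNCaP parental libraries and up to 2.86% in PACT KO libraries, where every library was higher. All 10 markers of LNCaP cells were detected. The 4 markers of basal epithelium summed to 0.0440 to 0.185 CPM in LNCaP parental libraries and at most 0.0989 CPM after knockout, with *KRT5* and *KRT15* at 0 reads. The 8 leukocyte markers summed to 0.264 to 0.485 and 0.544 to 1.19 CPM, where 7 had at most 3 reads in every library and *HLA-DRA* had 2, 2 and 5 against 19, 21 and 8 reads. The 8 fibroblast and endothelial markers summed to 54.2 to 55.2 and 54.3 to 61.0 CPM, nearly all from *COL1A1* and *VWF*, which moved in opposite directions (log2 fold changes of 0.52 and -0.61, each with an FDR under 0.01 by edgeR in all 14 alternative fits too), with *COL1A2*, *PECAM1* and *CDH5* at 0 reads. The part of these differences in the results below was not tested.

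The promoters of many genes of this group carry repeats of GAAA, the core of the elements that interferon regulatory factors bind. The 250 bases before the start site were available for 7 of the 9 genes (RefSeq, GRCh38.p14), and GAAANGAAA or GAAANNGAAA was searched on both strands. Matches stood in 4 of the 7, namely *RIGI*, *IFIH1*, *OAS1* and *OAS3*. Among 35116 windows of the same length over all genes, 2.69% held GAAANGAAA, 3.02% held GAAANNGAAA and 5.48% held at least 1 of them. Counted by gene, at least 1 window with a match was found for 6.74% of all genes with a window and 5.66% of those tested here. The windows of *RIGI* and *OAS3* are shown whole, since these are the genes of the group whose level differed between the lines, and the matches nearest to the start are shown for *IFIH1* and *OAS1*. Sequences run 5′ to 3′ along the gene, capitals mark the matches, and overlapping matches form 1 run.
RIGI, chr9:32526197-32526446, minus strand: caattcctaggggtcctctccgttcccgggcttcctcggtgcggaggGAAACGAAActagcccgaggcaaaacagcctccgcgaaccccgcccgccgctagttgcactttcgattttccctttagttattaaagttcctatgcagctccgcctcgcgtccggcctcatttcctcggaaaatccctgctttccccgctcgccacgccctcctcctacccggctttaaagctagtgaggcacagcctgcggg
OAS3, chr12:112938224-112938473, plus strand: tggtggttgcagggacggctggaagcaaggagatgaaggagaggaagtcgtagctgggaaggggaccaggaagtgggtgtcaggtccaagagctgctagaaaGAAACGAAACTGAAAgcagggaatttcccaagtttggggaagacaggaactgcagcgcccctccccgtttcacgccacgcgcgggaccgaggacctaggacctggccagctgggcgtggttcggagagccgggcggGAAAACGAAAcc
IFIH1, chr2:162318685-162318720, minus strand: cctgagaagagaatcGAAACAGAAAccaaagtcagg
OAS1, chr12:112906930-112906961, plus strand: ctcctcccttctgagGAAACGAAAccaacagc
The match of *RIGI* ended 194 bases before the start site, and those shown of *IFIH1* and *OAS1* ended close to it. *OAS3* held 3 matches, of which a pair overlapped, *IFIH1* held 3, and *RIGI* and *OAS1* held 1 each. The spelling GAAACGAAA stood in *RIGI*, *OAS1* and, within the longer run, *OAS3*. The windows of *TLR3*, *MAVS* and *ADAR* held no match. A match is a stretch of letters and no measurement of binding.

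To ask whether loss of PACT went with other levels of the dsRNA machinery, both lines were compared in 1 fit over all 14462 genes tested. *RIGI* was higher in PACT KO cells and *OAS3* was lower, both far beyond the spread between dishes. Thus 2 of the 9 genes had an FDR under 0.01, against 34.2% of all genes tested. In the higher direction this was 1 gene, where 15.3% of all genes passed, and in the lower direction also 1, where 18.8% passed. *OAS3* alone was also past a fold change of 1.5 and so called a differentially expressed gene (DEG), against 5.72% of all genes. The libraries of the lines did not overlap for 5 of the 9 genes, close to the 52.2% of all genes. The median log2 fold change of the 9 was -0.01 and that of all genes tested 0.00. The median absolute log2 fold change was 0.20 against 0.15.

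**Figure D1:**
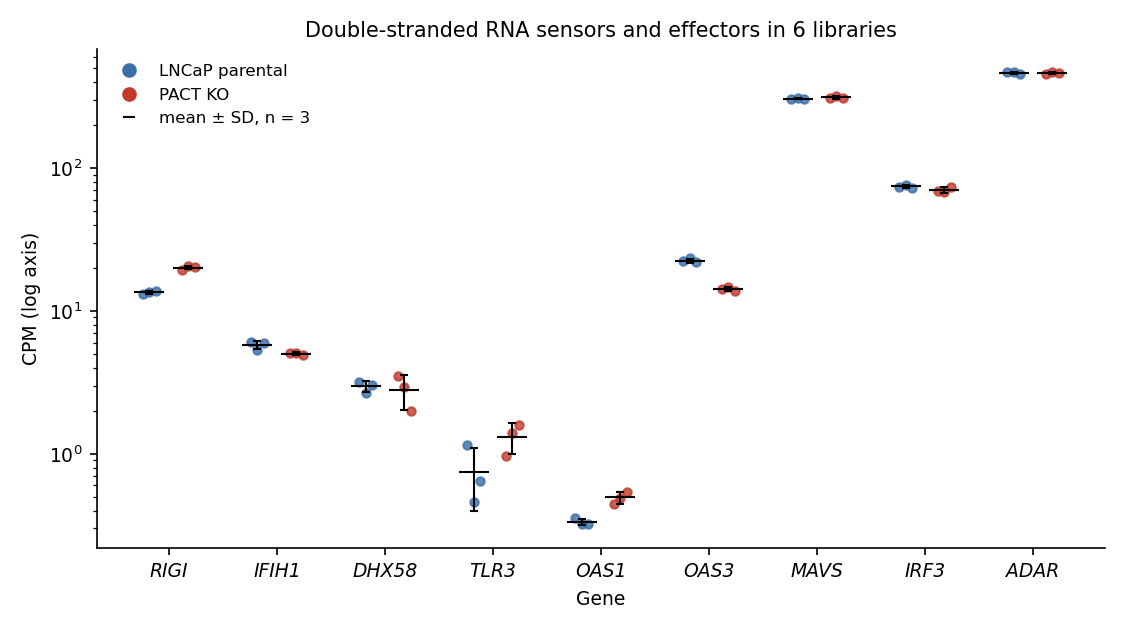
Levels of the 9 genes in each library, in CPM on a log axis, with LNCaP parental cells in blue and PACT KO cells in red; points are libraries and black marks give the mean ± SD of 3. *RIGI* sat at 13.2 to 13.8 CPM in LNCaP parental libraries but at 19.5 to 20.6 CPM in those of PACT KO, *OAS3* at 21.8 to 23.3 and 13.8 to 14.7 CPM, and *MAVS* and *ADAR* stood far above the sensors in both lines.

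Among the helicases, *RIGI* (chr9:32455302-32526196, minus strand, GRCh38.p14) had 300, 292 and 341 reads in LNCaP parental and 481, 500 and 411 in PACT KO libraries. In CPM these were 13.2, 13.5 and 13.8 against 19.5, 20.6 and 20.3, so every PACT KO library lay above every LNCaP parental library. The mean rose from 13.5 ± 0.278 to 20.1 ± 0.575 CPM, and the log2 fold change was 0.58 (SE 0.08, 95% interval 0.42 to 0.73, FDR = 6.37e-08 by edgeR). The fold change of 1.49 fell just under the limit of 1.5 for a DEG, and its interval of 1.34 to 1.66 held that limit. *RIGI* passed an FDR of 0.01 in all 14 alternative fits and reached the limit of fold change in 4 of them. The gene encodes the receptor for short dsRNA with a free triphosphate end.

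*IFIH1* (chr2:162267074-162318684, minus strand) encodes MDA5, the receptor for long dsRNA. It had 138, 115 and 147 reads in LNCaP parental and 125, 124 and 99 in PACT KO libraries. The levels of 6.08, 5.32 and 5.94 CPM lay above those of 5.06, 5.10 and 4.90 CPM without overlap. The log2 fold change of -0.20 (SE 0.11, 95% interval -0.43 to 0.02) did not pass, with an FDR of 0.141 by edgeR. The ratio of *RIGI* to *IFIH1* reads within a library is free of the scaling. It was 2.17, 2.54 and 2.32 in LNCaP parental and 3.85, 4.03 and 4.15 in PACT KO cells. The ratio was thus 1.71-fold higher in PACT KO cells and did not overlap between the lines. Its log2 difference of 0.78 includes the log2 fold change of 0.58 of *RIGI* itself. The exact permutation test, 2-sided, gave p = 0.1, the smallest that 3 against 3 libraries allow.

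*DHX58* (chr17:42101411-42112714, minus strand), the gene of LGP2, had 72, 58 and 75 reads in LNCaP parental and 86, 71 and 40 in PACT KO libraries. The PACT KO levels of 3.48, 2.92 and 1.98 CPM spread to both sides of the LNCaP parental levels of 3.17, 2.68 and 3.03 CPM. The log2 fold change was -0.07 (SE 0.16, 95% interval -0.39 to 0.26, FDR = 0.770 by edgeR), and without PACT KO replicate 3 it was 0.12. Relative to *RIGI* in the same library, *DHX58* had 0.240, 0.199 and 0.220 reads in LNCaP parental and 0.179, 0.142 and 0.0973 in PACT KO cells. The difference of the log2 ratio was -0.70 without overlap (exact permutation p = 0.1), and -0.46 without PACT KO replicate 3. *RIGI* is the divisor of this ratio, so its own log2 fold change of 0.58 is part of the difference. The ratio is therefore no separate result on *DHX58*.

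*TLR3* (chr4:186069156-186088073, plus strand), the endosomal receptor, was close to the limit of detection, with 26, 10 and 16 reads in LNCaP parental and 24, 34 and 32 in PACT KO libraries. LNCaP parental replicate 1 (1.15 CPM) lay above PACT KO replicate 1 (0.971 CPM), so the lines overlapped. The means were 0.751 ± 0.353 and 1.32 ± 0.314 CPM. The log2 fold change of 0.79 was the largest of the 9 but also among the least precise (SE 0.29, 95% interval 0.20 to 1.38), with an FDR of 0.0263 by edgeR. Without LNCaP parental replicate 1 it was 1.21 with an FDR of 0.00474, and without PACT KO replicate 1 it was 0.98 with an FDR of 0.00882 by edgeR, while over all 14 alternative fits the FDR reached 0.160. Over the 6 libraries the genes with the log2 levels most like those of *TLR3* were *RGMA*, *DCTN6*, *RBM23*, *ZNF880* and *PPP6C*, with Pearson r of 0.980 to 0.985. They were picked as the highest among many genes, over only 6 libraries and for a gene with few reads. Such r values are a description and do not show shared regulation. None of these 5 had an FDR under 0.01, and their log2 fold changes were 0.06 to 0.64.

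The 2 OAS genes of the group lie side by side on chromosome 12, and their log2 fold changes had opposite signs, of which that of *OAS3* passed. *OAS3* (chr12:112938474-112973251, plus strand), the family member that responds best to long dsRNA, had 505, 504 and 541 reads in LNCaP parental and 352, 358 and 280 in PACT KO libraries. Its level fell from 22.5 ± 0.758 to 14.3 ± 0.436 CPM, with no overlap. The log2 fold change was -0.65 (SE 0.07, 95% interval -0.80 to -0.50, FDR = 1.85e-09 by edgeR), or 1.57-fold lower. It was called a DEG in all 14 alternative fits, with log2 fold changes of -0.68 to -0.62, and not at a limit of 2-fold.

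*OAS1* (chr12:112906962-112933219, plus strand) had 8, 7 and 8 reads in LNCaP parental and 11, 12 and 11 in PACT KO libraries, the lowest level of the 9 genes. The libraries did not overlap (0.323 to 0.352 against 0.445 to 0.544 CPM), but at this depth the log2 fold change of 0.55 had a 95% interval of -0.36 to 1.46 and an FDR of 0.330 by edgeR. The reads of *OAS3* per read of *OAS1* were 63.1, 72.0 and 67.6 in LNCaP parental and 32.0, 29.8 and 25.5 in PACT KO cells. This ratio was 2.33-fold lower in PACT KO cells (exact permutation p = 0.1) and rests on the few reads of *OAS1*. Its log2 difference of -1.22 includes the log2 fold change of -0.65 of *OAS3* itself, so it is no separate result on *OAS1*. OAS genes are related in sequence, and an antisense gene overlaps exons of *OAS1*, so that reads could be assigned to another gene of the pair.

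**Figure D2:**
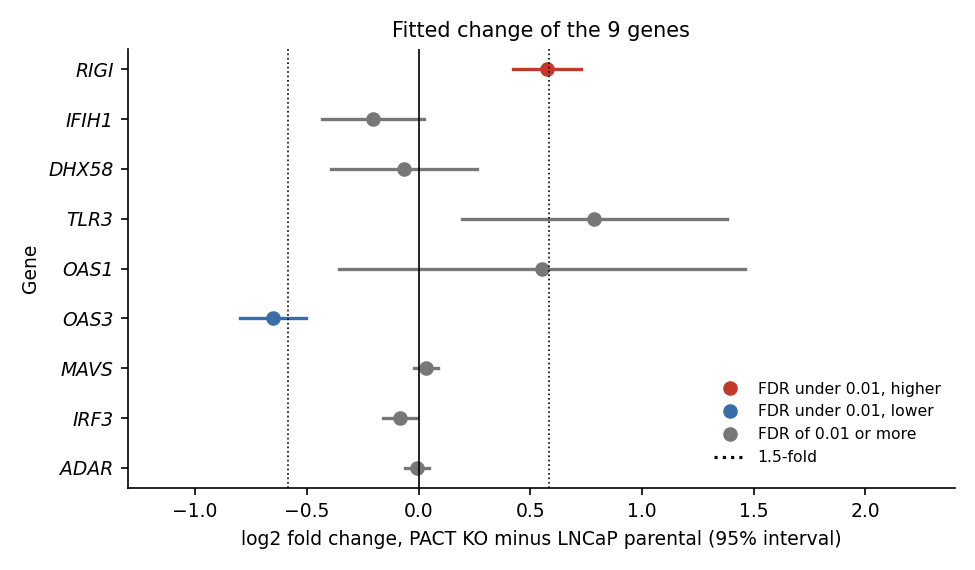
Log2 fold change of each gene, PACT KO minus LNCaP parental, with its 95% interval from edgeR; dotted lines mark a fold change of 1.5, red and blue mark an FDR under 0.01. The intervals of *MAVS*, *IRF3* and *ADAR* were narrow and close to 0, and those of *TLR3* and *OAS1* were wide.

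The adaptor *MAVS* (chr20:3846834-3876118, plus strand) was measured with 6643 to 7575 reads per LNCaP parental library and 6268 to 7804 per PACT KO library. Its levels of 306, 307 and 306 CPM and of 308, 321 and 310 CPM did not overlap, but the log2 fold change was only 0.03 (SE 0.03, 95% interval -0.02 to 0.09, FDR = 0.353 by edgeR). *IRF3* (chr19:49659572-49665857, minus strand), the transcription factor that MAVS and TLR3 signalling activate, had levels of 73.6, 76.6 and 72.9 CPM against 69.3, 67.6 and 73.9 CPM. The lines overlapped, and the log2 fold change was -0.08 (SE 0.04, 95% interval -0.16 to -0.01, FDR = 0.0691 by edgeR). *BCL2L12* lies on the opposite strand, shares exon bases with *IRF3* and was itself lower in PACT KO cells by a log2 fold change of -0.36 (FDR = 8.99e-05 by edgeR). Whether counting used the strand is not given in the sources used here, so the reads of the pair may not be fully told apart. The reads of *IRF3* per read of *MAVS* were 0.238 to 0.249 and 0.211 to 0.239, and overlapped (log2 difference -0.11, exact permutation p = 0.2). Both proteins are activated after translation, which these counts do not measure.

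*ADAR* (chr1:154582057-154627997, minus strand) had the most reads of the 9, 10134 to 11288 per LNCaP parental library and 9300 to 11431 per PACT KO library. The levels of 467, 469 and 456 CPM and of 454, 470 and 460 CPM overlapped. Its log2 fold change was -0.01 (SE 0.03, 95% interval -0.06 to 0.04, FDR = 0.836 by edgeR). With libraries scaled by their totals alone the value was 0.02, so no direction can be given. The counts are per gene and do not separate the interferon-inducible and constitutive isoforms, and editing itself cannot be read from them.

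Per kilobase of exon, the order of levels was the same in both lines. *ADAR* led with 47.9 ± 0.730 CPM per kb in LNCaP parental cells, followed by *MAVS* with 26.0 ± 0.0760 and *IRF3* with 19.6 ± 0.512 CPM per kb. The sensors came after these with a wide gap. *RIGI* had 3.10 ± 0.0639 CPM per kb in LNCaP parental and 4.62 ± 0.132 in PACT KO cells, and *OAS3* had 2.72 ± 0.0919 and 1.73 ± 0.0528. The gap between this pair of neighbours in the order was thus wider in PACT KO cells. *IFIH1* (1.13 ± 0.0790 CPM per kb in LNCaP parental cells) and *DHX58* (0.770 ± 0.0654) followed, and *TLR3* (0.112 ± 0.0525) and *OAS1* (0.0673 ± 0.00338) came last. Only this last pair lay within 1 SD of each other in LNCaP parental cells. By mean CPM, *ADAR* exceeded 98.2% of all genes tested, *MAVS* 96.7%, *RIGI* 39.4%, *IFIH1* 24.4% and *OAS1* 0.539%.

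The genes around the 9 were read from the same fit. Of 4 further genes of the oligoadenylate pathway that are reported here, 3 were tested, of which 2 were lower at an FDR under 0.01, where 18.8% of all genes tested were lower. With so few genes no share is compared. *ABCE1*, a ribosome recycling factor, fell by 0.27, and *PDE12*, which degrades oligoadenylates, fell by 0.19 on the log2 scale. *OASL*, a relative without oligoadenylate synthesis that enhances RIG-I signalling, had a log2 fold change of -0.70 with an FDR of 0.0257 by edgeR. Over the alternative fits its FDR ran from 0.00240 to 0.208, and it was under 0.01 without PACT KO replicate 2 and without LNCaP parental replicate 1. *OAS2* had at most 4 reads in any library and was not tested.

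Of 13 regulators of RIG-I-like receptors, 2 were lower and 2 were higher at an FDR under 0.01. This is 15.4% in each direction, near the 18.8% lower and 15.3% higher of all genes tested. Over the alternative fits 1 to 2 were lower and 1 to 3 higher. *DDX60*, a helicase described as a cofactor of RIG-I, had 86, 93 and 105 reads in LNCaP parental and 158, 181 and 126 in PACT KO libraries, and was a DEG (log2 fold change 0.71, SE 0.12). *DHX15*, a splicing helicase that also binds dsRNA, had a log2 fold change of -0.25. *YWHAH* (-0.15) and *ZNFX1* (0.12) passed in only 6 of the 14 alternative fits each. The log2 fold changes of *TRIM25* and *RNF135*, ubiquitin ligases of RIG-I, were -0.05 and -0.13 with FDRs of 0.130 and 0.0438 by edgeR (both named after their values were seen).

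Downstream of MAVS and TLR3, 6 of 23 adaptors, kinases and transcription factors were lower and 1 was higher, or 26.1% and 4.35% against 18.8% and 15.3% of all genes tested. Over the alternative fits 3 to 6 were lower, with 3 without PACT KO replicate 1 and by DESeq2, and 0 to 3 were higher. The lower genes included *TOMM70* (-0.16), a mitochondrial receptor that binds MAVS, *TRAF2* (-0.27), and the NF-kB genes *IKBKG* (-0.30), *NFKB1* (-0.14) and *RELA* (-0.12). Of these, *TOMM70* and *TRAF2* passed in all 14 alternative fits, while *NFKB1*, *IKBKG* and *RELA* passed in 13, 10 and 8. The higher gene was *IRF1* (0.43), which passed in 9 of the 14. *TICAM1*, the adaptor of TLR3, and *TBK1*, the kinase of IRF3, had log2 fold changes of 0.00 and -0.06 and did not pass.

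Among 19 other proteins that bind dsRNA, 7 were lower, *PRKRA* among them, and 4 were higher, or 36.8% and 21.1% against 18.8% and 15.3% of all genes tested. These counts were 4 and 2 without LNCaP parental replicate 1, and likewise without PACT KO replicate 1. *PRKRA* is the edited gene, so its fall is no independent part of the 36.8%. *EIF2AK2*, the gene of PKR, had 561, 523 and 613 reads in LNCaP parental and 764, 653 and 585 in PACT KO libraries, and rose from 24.5 ± 0.313 to 28.9 ± 2.04 CPM. Its log2 fold change was 0.24 (SE 0.06, FDR = 0.00172 by edgeR). It passed in 10 of the 14 alternative fits, and missed with FDRs of 0.0104, 0.0158 and 0.0177 without LNCaP parental replicates 1 and 2 and without PACT KO replicate 1, and of 0.0101 by DESeq2. *STAU2* (0.32) and *STRBP* (0.15) were also higher, while *DHX36* (-0.22) and *DDX21* (-0.18) were lower. Of 5 enzymes that limit dsRNA made by the cell itself, 2 were lower at an FDR under 0.01, against 18.8% of all genes tested. With so few genes no share is compared. The lower genes were *SUPV3L1* (-0.25) and *PNPT1* (-0.24), which together degrade mitochondrial dsRNA, in all 14 alternative fits as well. The other 3, *SKIC2* (-0.07), *SETDB1* (-0.04) and *XRN1* (-0.02), did not pass.

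**Figure D3:**
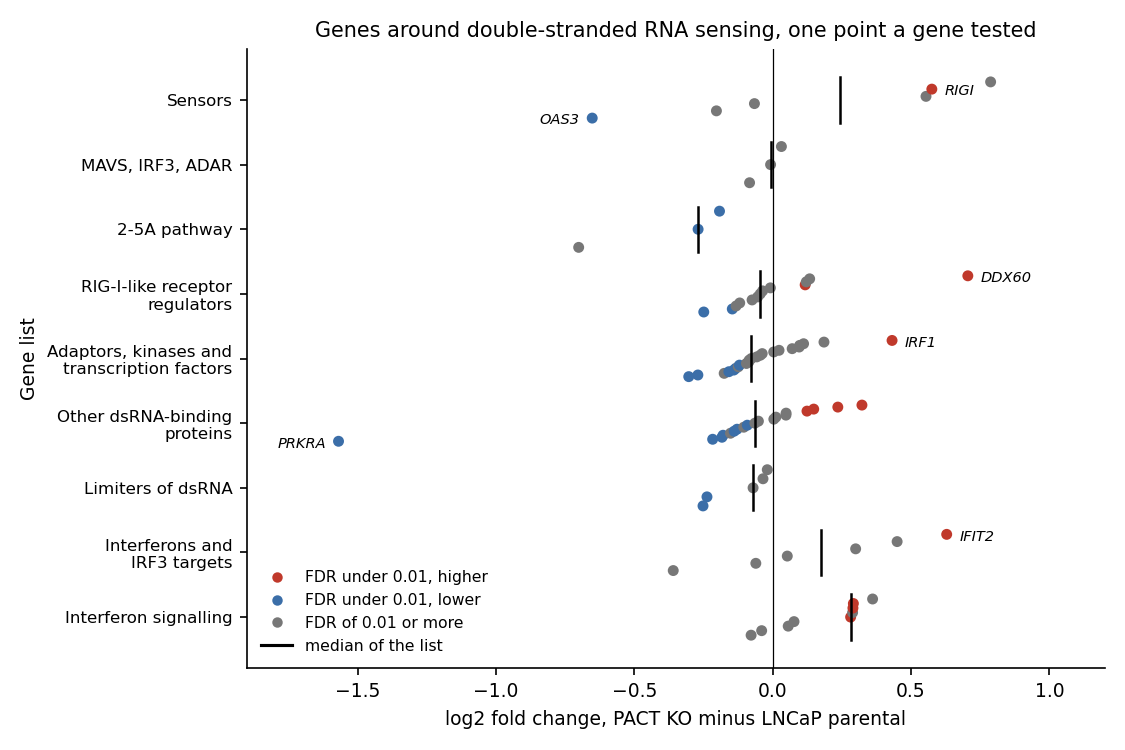
Log2 fold change, PACT KO minus LNCaP parental, of the tested genes of each list, 1 point a gene, with red and blue for an FDR under 0.01 and a black line at the list's median. Among genes with an FDR under 0.01, *RIGI*, *DDX60*, *IRF1* and *IFIT2* lay furthest to the right and *OAS3* and *PRKRA* furthest to the left, while *TLR3* (0.79) and *OASL* (-0.70), in grey, lay as far out without passing.

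The interferon transcripts reported here, of *IFNB1*, *IFNL1*, *IFNL2* and *IFNL3*, were at or near 0 in both lines. *IFNB1*, *IFNL1* and *IFNL2* had 0 reads in every library, which allows up to 0.121 to 0.148 CPM, and 7 of the 13 interferons and early IRF3 target genes had at most 3 reads in each library. Of the 6 tested, 1 was higher at an FDR under 0.01, or 16.7% against 15.3% of all genes tested. This was *IFIT2*, an interferon-induced RNA-binding protein, which rose from 4.68 ± 0.405 to 7.28 ± 0.958 CPM. It was a DEG (log2 fold change 0.63, SE 0.12), as were 5.72% of all genes tested. It stayed under an FDR of 0.01 in all 14 alternative fits, but leaving out LNCaP parental replicate 1 gave a log2 fold change of 0.56 and leaving out PACT KO replicate 3 gave 0.54, both under the 1.5-fold limit. The log2 fold changes of the other genes, *IFIT1* (0.30), *IFIT3* (0.45), *RSAD2* (-0.36), *ISG15* (-0.06) and *ISG20* (0.05, named after its value was seen), did not pass. That of *IFIT1* was 0.05 without PACT KO replicate 3 and 0.48 without PACT KO replicate 2, and that of *RSAD2* ran from -0.64 to -0.21 over the alternative fits, the extremes being without PACT KO replicates 2 and 3. In interferon signalling 3 of the 9 tested genes reported here were higher, against 15.3% of all genes tested. Only 1 was higher without LNCaP parental replicate 3, and likewise by DESeq2. *STAT2* rose from 112 ± 4.05 to 137 ± 2.67 CPM (log2 fold change 0.28) and passed in all 14 alternative fits, whereas *JAK1* (0.29) and *IL10RB* (0.29) passed in 8 and 10.

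Around *RIGI*, the nearest 6 genes tested, 3 on each side, had log2 fold changes of -0.15 to 0.28, and 1 passed, in the direction opposite to *RIGI*. Around *OAS3*, 4 of 6 passed in its direction, where 18.8% of all genes did, all with smaller changes than *OAS3*, and the 6 ranged from -0.32 to 0.55, the last being *OAS1*. Around *TLR3* 3 of 6 were higher at an FDR under 0.01, where 15.3% of all genes were.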

How the data were processed

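PolyA RNA of 3 LNCaP parental and 3 PACT KO dishes was sequenced on an Illumina NovaSeq. The authors deposited whole-number read counts per NCBI Gene number, not normalized. The submitters' processing notes name hg38, bcl2fastq 2.20.0.422, STAR 2.5.3a, StringTie 1.3.3 and featureCounts 1.5.3. Which annotation was counted, and whether by strand, is not given in the sources used here. A row without a gene number (0.0688% to 0.0708% of counts) was left out. Of 29806 genes, 27540 were given a RefSeq symbol.

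Genes passing edgeR's filterByExpr (14462) were scaled by TMM and compared with glmQLFit and glmQLFTest (edgeR 4.0.16, R 4.3.3), 2-sided, with Benjamini-Hochberg adjustment (FDR) over all genes tested. A DEG had an FDR under 0.01 and a fold change of at least 1.5. The script was first tested on simulated data. The SE is the log2 fold change divided by the root of F. CPM use TMM factors, and exon lengths are from GENCODE release 29. Total counts of 19930060 to 24940838 per library set the precision, and 3 counts were taken as the floor. Floors cover counting error only.

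The 9 genes, the lists and the tests were chosen with earlier results of these data known. Named are the 9 genes, *PRKRA*, up to 5 genes of each list with the smallest p, a set of pathway genes whatever their p, and the 5 genes most correlated with *TLR3*. Results for some genes of the pathway are not reported here. Alternatives were DESeq2 1.42.0, limma-voom (limma 3.58.1), 3 scalings, 2 filters, a replicate block, other thresholds and each library left out in turn.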

Additional observations from a re-analysis of the deposited data

How the results depend on the processing

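*RIGI* and *OAS3* kept their direction and an FDR under 0.01 in all 14 alternative fits. The number of the 9 genes called DEGs was 1, and it was 2 with upper quartile scaling, with library totals alone and at an FDR under 0.05 with a 1.5-fold limit, 0 at a 2-fold limit, and 1 to 3 when a library was left out. The added calls were *RIGI*, at 0.575 against a limit of 0.585 on the log2 scale, and *TLR3*. The DEGs over all genes were 827, and 322 at a 2-fold limit. *ADAR* turned to 0.0163 with upper quartile scaling and 0.0218 with library totals alone, and ranged from -0.0216 to 0.00828 when a library was left out; *DHX58* ranged from -0.25 to 0.12. The median log2 fold change of all genes tested also rose, by 0.0241 with upper quartile scaling and 0.0292 with library totals alone. The 0.12 of *DHX58* came without PACT KO replicate 3. The cause was not tested. *OAS1* was not tested at a minimum of 1 CPM in 3 libraries. Same-numbered libraries deviated from their group means with correlations of -0.11 to 0.01, and 0 of 3 LNCaP parental libraries correlated best with its own number. These values show no pairing by number, but with 3 libraries per group a weak pairing could be missed. With the replicate block 800 genes were DEGs, and *RIGI* (0.58) and *OAS3* (-0.65) kept their calls, as did the other 7 genes. Depth limits *OAS1* and *TLR3*, with 7 to 34 reads per library.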
